A study of Rattus norvegicus with 7 samples.

Results

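The telencephalic transcription factors described here are 8 genes chosen by name: Lhx2, Emx1, Emx2, Tbr1, Neurod2, Bcl11b, Zbtb20 and Mef2c. Each was looked up by its symbol in 2 deposited tables of transcript levels, 1 for hippocampus and 1 for hypothalamus of the rat. Of the 8 genes, 5 (Lhx2, Emx2, Tbr1, Neurod2 and Bcl11b) had values in both tables, and Zbtb20 had values in the hypothalamus table alone, which makes 6 genes of the 16511 symbols with usable values in either table. Emx1 and Mef2c were not analysed here, in either tissue, nor was Zbtb20 in hippocampus. All 7 libraries came from male Sprague Dawley rats, 2 months old at the start, whose diet held DHA (docosahexaenoic acid), a long-chain omega-3 fatty acid, for 6 weeks, and they comprised 4 of hippocampus and 3 of hypothalamus. The study set this diet against regular chow, but libraries of chow-fed rats were not analysed here, so the values describe DHA-fed animals and no effect of the diet was estimated. The labels do not state whether each library came from its own animal, nor whether hippocampus and hypothalamus libraries of the same number share an animal.

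The forebrain divides during development into the telencephalon, which forms the cortex, hippocampus and striatum, and the diencephalon, from which much of the hypothalamus arises. Transcription factors mark and set up these territories. LIM-homeodomain and Emx homeodomain proteins act early in cortical and hippocampal progenitors. T-box, NeuroD and Bcl11 proteins act later, as excitatory neurons take on their identity, and several of them continue to be expressed in mature hippocampal neurons.

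Levels are FPKM, fragment counts scaled to transcript length and library size, which allow genes of different length to be compared within a library. FPKM summed over all loci ranged from 370020 to 391349 in the hippocampus libraries and from 443335 to 471484 in the hypothalamus libraries, and the number of sequenced fragments is unknown. The locus numbers of a gene differed between the tables (Lhx2 was XLOC_017364 in one and XLOC_016484 in the other), so the tables were treated as separately quantified, and differences between them were described without a test. For those differences the values of a library were divided by their sum over the 15805 symbols present in both tables and multiplied by 1000000. A gene was called for a tissue if its lowest library there exceeded its highest library in the other tissue, with mean log2(rescaled FPKM + 1) at least 1 unit (2-fold) apart. Differences in log2 units below are hippocampus minus hypothalamus on that scale, with their standard error (SE), and they understate the change of low genes. Sums of marker lists are FPKM as deposited, without that rescaling. In whole tissue, fewer cells of a type and less RNA per cell cannot be told apart. Library 1 of either tissue stood apart: across genes, which are not independent replicates, Pearson r with the other libraries was 0.907 to 0.939 in hippocampus and 0.936 to 0.942 in hypothalamus, against 0.962 to 0.975 and 0.972 among the rest. Hypothalamus replicate 1 was also the lowest library for 13 of 17 hypothalamic transcription factors and had the highest sum of the thalamus list (5 of 5 genes found), 62.3 FPKM against 35.9 and 25.8 FPKM. The part of these in the values below was not tested, and differences are also given without both libraries numbered 1.

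In hippocampus, Lhx2 had the highest level of the 5 genes measured there and Emx2 the lowest, and each of the 5 lay higher in every hippocampus library than in any hypothalamus library, as did 28.2% of the 10736 symbols compared (24.4% lay the other way). The differences ran from 5.82-fold for Emx2 to 38.0-fold for Neurod2 on the log2(value + 1) scale, and all 5 met the call for hippocampus and none that for hypothalamus. Lhx2, in place of Emx2, had the smallest difference with a pseudocount of 0.1, with the loci of a symbol summed or without the libraries numbered 1. Of all symbols compared, 14.5% were called higher in hippocampus and 13.4% higher in hypothalamus. The median difference of the 5 genes was 3.40, against 0.05 over all symbols compared. Emx2 and Neurod2 had a mean under 1 FPKM in hypothalamus and entered the comparison through hippocampus alone, so the count of 5 carries no weight of its own beyond the values below. Without the libraries numbered 1, all 5 kept the call, and 18.1% of all symbols were called for hippocampus.

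**Figure D1:**
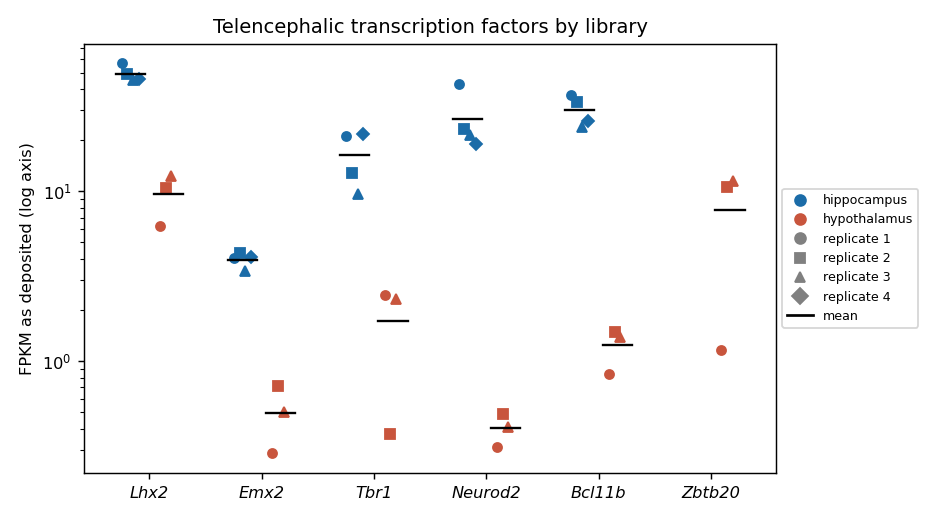
Deposited FPKM (log axis) of each transcription factor in every library, with hippocampus in blue, hypothalamus in orange, symbols for the replicates and a black line for the mean. For the 5 genes with both tissues the points do not overlap, and Zbtb20 has hypothalamus points alone, of which replicate 1 lies at 1.16 FPKM, below the other 2.

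Lhx2 and Emx2 were examined first, as the factors of early regional patterning. Lhx2 encodes a LIM-homeodomain protein that specifies cortical and hippocampal fate and is also known from hypothalamic tanycytes, glial cells that line the third ventricle. Hippocampus replicates 1 to 4 held 56.6, 49.0, 44.9 and 45.5 FPKM of it, on average 49.0 ± 5.35 (SD, n = 4). The level was 6.27, 10.4 and 12.4 FPKM in hypothalamus replicates 1 to 3, on average 9.68 ± 3.12 (SD, n = 3). The hippocampus libraries lay close together and all above the hypothalamus libraries, of which replicate 1 was the lowest. The difference was 2.63 ± 0.27 (SE), or 6.20-fold, and 2.30 without the libraries numbered 1. Of all symbols in the hippocampus table, 90.7% had a lower mean than Lhx2.

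Lhx2 also had the highest mean of the 6 genes in hypothalamus. It exceeded Zbtb20, the next gene, in 2 of 3 libraries, and their ranges overlapped. Without hypothalamus replicate 1 the means were 11.4 FPKM for Lhx2 and 11.1 FPKM for Zbtb20. Rax, a homeobox gene of tanycytes, was at 0 throughout hippocampus. Its hypothalamus replicates 1 to 3 held 1.70, 5.97 and 6.21 FPKM, in the same order of libraries as Lhx2. The ependyma and tanycyte list, with 5 of 5 genes found, summed to between 84.3 and 184 FPKM in hippocampus, and Rax was its single gene at 0 throughout a tissue. In hypothalamus replicates 1 to 3 the list summed to 354, 457 and 242 FPKM, most of it Vim, at 325, 410 and 183 FPKM. The genes did not move together: Vim was lowest in replicate 3, where Lhx2 was highest, while Foxj1, Ccdc153 and Rax, 3 of the 5, were highest there. The meninges list (5 of 5 found, Col1a2 at 0 in every library) summed to 106, 212 and 40.9 FPKM, the library order of Vim. The part of these cells in the Lhx2 level was not tested.

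Emx2 encodes a homeodomain protein needed for the growth of the hippocampus and dentate gyrus. Its levels were 4.07, 4.31, 3.41 and 4.08 FPKM in hippocampus replicates 1 to 4, on average 3.97 ± 0.39 (SD, n = 4), and 0.286, 0.709 and 0.499 FPKM in hypothalamus, on average 0.498 ± 0.212 (SD, n = 3). The tissues did not overlap, and the difference was 2.54 ± 0.20 (SE), or 2.35 without the libraries numbered 1. Emx2 was the one gene of the 6 with a second locus. That locus, XLOC_003053 in the hippocampus table, read 2.53, 4.79, 3.33 and 3.33 FPKM, on average 3.49 ± 0.94 (SD, n = 4), almost as high as the first locus. In the table the 2 loci stood far apart, between different neighbouring genes. Whether fragments were assigned by strand is not stated, so reads of Emx2 and of any overlapping antisense transcript cannot be told apart. With both loci added, the hippocampal mean was 7.46 FPKM and the difference 3.34.

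Tbr1 and Neurod2 are factors of excitatory neurons after their last division. Tbr1 encodes a T-box protein of early-born, deep-layer cortical neurons, which is also known from the hippocampus. Its levels in hippocampus were 21.1, 12.9, 9.67 and 21.8 FPKM in replicates 1 to 4, on average 16.4 ± 6.02 (SD, n = 4). In hypothalamus it read 2.44, 0.373 and 2.34 FPKM, on average 1.72 ± 1.17 (SD, n = 3). Replicates 1 and 4 were the high hippocampus libraries and replicate 2 the low hypothalamus library, and the tissues did not overlap. The difference was 3.40 ± 0.66 (SE), with the widest error of the 5 genes. It was 3.58 without the libraries numbered 1 and 2.80 without hypothalamus replicate 2.

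Marker values that accompany the Tbr1 spread were set beside it. The cortex list, with 6 of 6 genes found and none at 0 throughout, summed to 80.3, 85.5, 71.5 and 101 FPKM in hippocampus replicates 1 to 4 and to between 49.1 and 53.9 FPKM in hypothalamus. The largest part of the sum was Rasgrf2, at 35.9, 47.8, 37.7 and 59.9 FPKM in hippocampus. Rasgrf2 alone was called for hippocampus and Foxp2 alone for hypothalamus (difference -1.26). After rescaling, Rorb and Cux2 overlapped between tissues, and Fezf2 and Tle4 lay above in every hippocampus library at less than 2-fold. Of the 6 genes, 4 were highest in replicate 4 (Rorb, Rasgrf2, Tle4 and Foxp2) and 2 in replicate 1 (Fezf2 and Cux2), the libraries where Tbr1 was high, while Fezf2 was lowest in replicate 4. In hypothalamus, Slc17a7, the vesicular glutamate transporter of cortical and hippocampal neurons, read 0.985, 0.15 and 0.648 FPKM. It was lowest in replicate 2, where Tbr1 was lowest as well. In hippocampus it read 847, 694, 574 and 571 FPKM and was lowest in replicate 4, where Tbr1 was highest. Nrgn, another gene of the excitatory neuron list, was lowest in hypothalamus replicate 1, at 99.4 FPKM, where Tbr1 was highest. Slc17a6, the third gene found of that list, read 78.1, 27.4 and 27.5 FPKM in hypothalamus. The order of libraries was that of Tbr1, but replicate 1 stood apart for Slc17a6 and replicate 2 for Tbr1. In hippocampus Slc17a6 was highest in replicate 4, as Tbr1 was, and lowest in replicate 1. Slc17a7 was set beside Tbr1 after its values were seen, and the part of these markers in the Tbr1 spread was not tested.

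Neurod2 encodes a basic helix-loop-helix activator of cortical and hippocampal neurons that binds DNA motifs called E-boxes together with E proteins such as TCF4. Hippocampus replicates 1 to 4 held 43.1, 23.3, 21.4 and 18.9 FPKM, on average 26.7 ± 11.1 (SD, n = 4). The level was 0.313, 0.491 and 0.409 FPKM in hypothalamus, on average 0.404 ± 0.089 (SD, n = 3). Replicate 1 stood above the other hippocampus libraries, and without it the mean was 21.2 ± 2.22 FPKM (SD, n = 3), while the hypothalamus libraries were uniformly low. The difference of 5.25 ± 0.28 (SE) was the largest of the 5 genes and ranked 23 among the 10736 symbols compared; without the libraries numbered 1 it was 4.91. Even the lowest hippocampus library exceeded the highest hypothalamus library 46.2-fold in rescaled FPKM. The excitatory neuron list, with 3 of 4 genes found and none at 0 throughout, was also highest in hippocampus replicate 1, at 1616 FPKM against 896 to 1052 FPKM in the others, and summed to between 176 and 235 FPKM in hypothalamus. In hippocampus Slc17a7 and Nrgn carried the sum, and in hypothalamus Nrgn and Slc17a6 did. Slc17a6, the vesicular glutamate transporter called for hypothalamus (difference -2.37), was lowest in hippocampus replicate 1, at 5.15 FPKM against 5.63 to 6.93 FPKM. The list's part in the Neurod2 value of replicate 1 was not tested.

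Because Neurod2 had the largest tissue difference and its own family binds E-boxes, the sequence before its start is shown, with E-boxes in capitals. It is the RefSeq sequence of assembly GRCr8, chr10:83824278-83824527, minus strand, the 250 bases before the annotated gene start. The processing notes of the study name the older build rn5, so these coordinates do not apply to its tables.

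Neurod2 upstream: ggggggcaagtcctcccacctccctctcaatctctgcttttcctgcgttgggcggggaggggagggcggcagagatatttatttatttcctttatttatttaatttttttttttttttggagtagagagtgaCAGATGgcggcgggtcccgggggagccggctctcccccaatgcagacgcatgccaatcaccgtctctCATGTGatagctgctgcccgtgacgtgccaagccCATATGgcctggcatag

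The E-box was searched as CANNTG, which reads the same on both strands, and matched 3 times, while 65.5% of the 33469 RefSeq windows of this length held at least 1 match. The first match, CAGATG, is of a kind bound by NeuroD proteins and was found, on either strand, in 14.0% of windows. GGGCGG, the GC box, matched 2 times on either strand, and 30.5% of windows held it. The median was 1 E-box a window. The same search matched 2 times for Emx1, 1 time for Tbr1 and 0 times for Lhx2, and the windows of Tbr1 and Lhx2 lie inside the span of their RefSeq gene, unlike that of Neurod2. These matches are descriptions of the sequence, and no measurement of binding was made.

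Bcl11b, also called Ctip2, encodes a zinc finger protein of deep-layer projection neurons, of hippocampal granule and CA1 neurons and of striatal neurons. Its levels were 36.8, 33.5, 24.0 and 25.9 FPKM in hippocampus replicates 1 to 4, on average 30.0 ± 6.11 (SD, n = 4), and 0.845, 1.48 and 1.39 FPKM in hypothalamus, on average 1.24 ± 0.34 (SD, n = 3). The tissues were far apart, with a difference of 4.49 ± 0.23 (SE), or 22.4-fold, which ranked 36 among all symbols compared, and 4.20 without the libraries numbered 1. The striatum list had 6 of 6 genes found and none at 0 throughout. In FPKM as deposited, without rescaling, it summed to between 41.0 and 53.4 in hippocampus and between 63.3 and 125 in hypothalamus. Most of the sum was Ppp1r1b, which overlapped between tissues after rescaling. Of the 6 genes, Drd2 and Rgs9 were called for hypothalamus and none for hippocampus, while Drd1 lay above in every hippocampus library, with a difference of 0.99. The part of striatal neurons in the Bcl11b level was not tested.

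Zbtb20 encodes a BTB zinc finger protein known for CA1 neuron fate and also expressed in astrocytes. In hypothalamus it read 1.16, 10.6 and 11.5 FPKM, on average 7.76 ± 5.74 (SD, n = 3). Replicate 1 was thus 9.93-fold below replicate 3, while replicates 2 and 3 lay close together, at 11.1 ± 0.68 FPKM (SD, n = 2). The astrocyte list, with 7 of 7 genes found and none at 0 throughout, summed to 2136, 2798 and 2451 FPKM in the same libraries. The sum was lowest in replicate 1, but its genes did not move together: S100b and Gja1 were lowest there, while Aqp4, Slc1a2, Slc1a3 and Aldh1l1, 4 of the 7, were highest there. The part of astrocytes in the Zbtb20 spread was not tested.

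**Figure D2:**
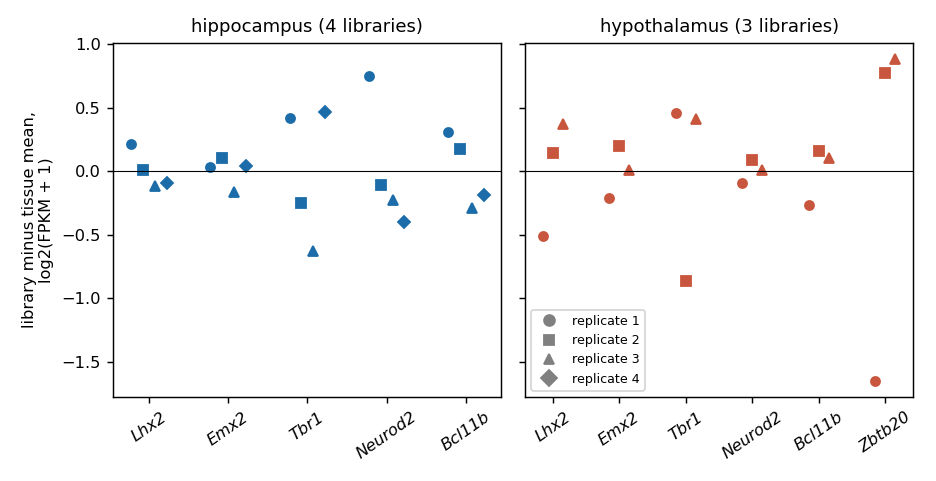
Each library's log2(FPKM + 1) minus the mean of its tissue, for hippocampus (left) and hypothalamus (right), with replicates marked by symbol. Hippocampus replicate 1 is highest for Lhx2, Neurod2 and Bcl11b, and hypothalamus replicate 1 is lowest for each gene shown except Tbr1, for which replicate 2 is lowest.

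The spread among replicates was set against that of other genes. In hippocampus the SD of log2(FPKM + 1) was 0.53 for Tbr1, 0.51 for Neurod2 and 0.29 for Bcl11b, above the median of 0.23 over 10309 symbols averaging 1 FPKM or more, and 0.15 for Lhx2 and 0.12 for Emx2, below it. In hypothalamus Zbtb20 (1.43), Tbr1 (0.75) and Lhx2 (0.46) were above the median of 0.25 over 10757 symbols, and Bcl11b, Emx2 and Neurod2 were below it. The last 2 had means under 1 FPKM, where this scale compresses a spread. Some of these values rested on 1 library. Without hippocampus replicate 1 the SD of Neurod2 was 0.15, below the median of 0.19, and 2 of the 5 genes were above it. In hypothalamus the SD of Tbr1 was 0.03 without replicate 2 and that of Zbtb20 0.08 without replicate 1, both below the median, while Lhx2 was above it with any 1 library left out. With a pseudocount of 0.1, and likewise without hypothalamus replicate 3, 5 of the 6 genes were above the median there.

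Within a tissue the order of mean levels was compared. In hippocampus Lhx2 exceeded Bcl11b, the next gene, in 4 of 4 libraries, and their ranges did not overlap. Bcl11b and Neurod2 overlapped in range, as did Neurod2 and Tbr1, and each pair stood in this order in 3 of 4 libraries. Tbr1 lay above Emx2 in 4 of 4 libraries, 4.13-fold by the means. In hypothalamus the order was Lhx2, Zbtb20, Tbr1, Bcl11b, Emx2 and Neurod2, and of these neighbours only Bcl11b and Emx2 had ranges that did not overlap. Neurod2 stood between Bcl11b and Tbr1 in hippocampus but was the lowest of the 6 genes in hypothalamus.

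**Figure D3:**
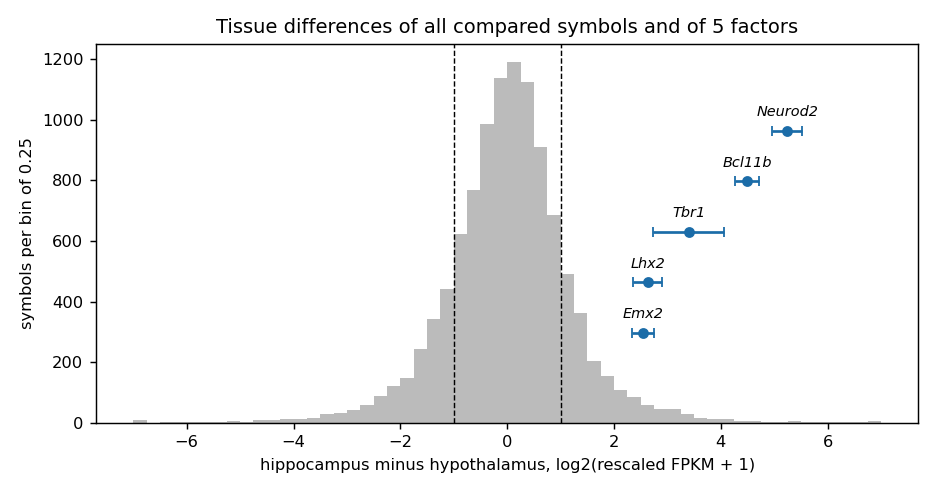
Number of symbols by tissue difference (hippocampus minus hypothalamus, log2 of rescaled FPKM + 1, bins of 0.25, values beyond 7 placed in the end bins), with the 5 transcription factors as points at arbitrary height and bars for the SE. The dashed lines mark a 2-fold difference, and the 5 points lie between 2.54 and 5.25.

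Related genes were taken from lists made alongside the 8 genes. Among 25 other factors of the telencephalon, 21 were found and compared. Of these, 10 were called higher in hippocampus, 1 higher in hypothalamus and 10 neither, against the 14.5% and 13.4% of all symbols. The median difference was 1.0. Of the 10 called for hippocampus, 3 averaged under 1 FPKM in hypothalamus and entered through hippocampus alone, so the count carries no weight beyond the values. Neurod6, of the same family as Neurod2, had the largest difference at 6.06 ± 0.21 (SE). Zbtb18, a zinc finger repressor of cortical neurons listed under its older name Zfp238, read 135 ± 12.2 against 11.4 ± 1.79 FPKM, a difference of 3.83 ± 0.14. Neurod1, which drives granule cell differentiation, read 8.73 ± 0.99 against 0.622 ± 0.216 FPKM, a difference of 3.43 ± 0.17. The gene called higher in hypothalamus was Nr2f2, an orphan nuclear receptor, at 41.5 ± 4.37 against 9.42 ± 1.63 FPKM. Nr2f2 and the other genes named here outside the 4 largest differences of a list were chosen after their values were seen.

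The list of 17 hypothalamic factors was set beside them. All 17 were found and compared, 15 were called higher in hypothalamus and 0 higher in hippocampus, against 13.4% and 14.5% of all symbols, with a median difference of -3.26. Of the 15, 13 averaged under 1 FPKM in hippocampus and entered the comparison through hypothalamus alone, so the count carries no weight beyond the values. Lhx1, a LIM-homeodomain relative of Lhx2, read 36.3, 54.2 and 33.4 FPKM in hypothalamus and at most 0.132 FPKM in any hippocampus library. Otp, a homeobox gene of neuroendocrine neurons, held 9.36, 15.2 and 22.7 FPKM in hypothalamus, and with Rax, Hmx2, Hmx3 and Nr5a1 it was at 0 in each hippocampus library. The pituitary list, with 5 of 5 genes found and Prl at 0 in every library, summed to 76.7, 306 and 207 FPKM in hypothalamus and to between 0.507 and 1.36 FPKM in hippocampus. Its part in the levels of hypothalamic factors was not tested. Nkx2-1 and Foxb1 completed the 4 largest differences, at -4.40 ± 0.23 and -3.98 ± 0.24 (SE). Of the 2 not called, Nkx2-2 overlapped between tissues.

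**Figure D4:**
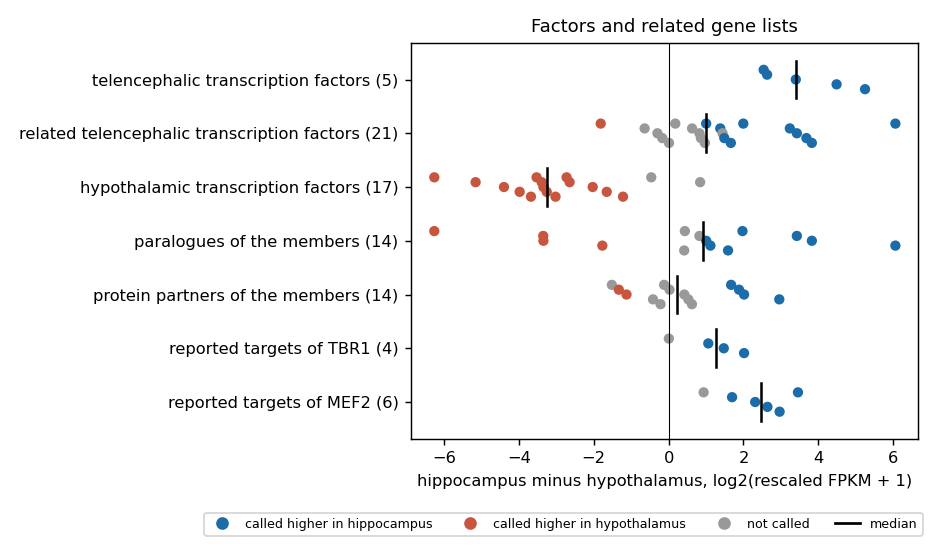
Tissue difference (hippocampus minus hypothalamus, log2 of rescaled FPKM + 1) of every compared gene in the 5 measured factors and 6 related lists, with the number of genes in brackets, the call by colour and the median as a black line. Hypothalamic factors lie mostly left of 0 (median -3.26), while paralogues of the factors spread over both sides.

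Paralogues of the factors were called for either tissue. Of 21 listed, 19 were found and 14 compared, with 7 called higher in hippocampus and 4 higher in hypothalamus, against 14.5% and 13.4% of all symbols. All 4 averaged under 1 FPKM in hippocampus, and 2 of the 7 under 1 FPKM in hypothalamus, so these entered through the tissue where they were high and the counts carry no weight beyond the values. The 4 were the LIM-homeodomain genes Lhx1, Lhx5, Lhx8 and Isl1, whereas Lhx9, the closest relative of Lhx2, was called for hippocampus at 3.33 ± 0.28 against 1.19 ± 0.80 FPKM, a call lost with a pseudocount of 5 and with a minimum of 5 FPKM. Lhx8 read 3.55 FPKM in hypothalamus replicate 1 against 0.298 and 0.953 FPKM in replicates 2 and 3, and without replicate 1 it was no longer called. Lhx6, a factor of cortical interneurons, overlapped between tissues, with 2.52 ± 0.20 and 2.68 ± 1.88 FPKM. In the MEF2 family of activity-regulated MADS-box factors, of which Mef2c itself was not analysed here, Mef2a was called for hippocampus, where it averaged 38.5 ± 2.83 FPKM against 12.1 ± 3.82 FPKM. Mef2d read 40.4 ± 3.58 against 29.1 ± 10.2 FPKM, above in every hippocampus library after rescaling but at less than 2-fold, with a difference of 0.82 ± 0.31. Bcl11a, the paralogue of Bcl11b, had a difference of 1.004 ± 0.173, at the threshold, and its call for hippocampus was lost under each of the 3 other scalings and without replicate 1 of either tissue. Zbtb16 read 24.0 ± 7.34 against 14.0 ± 6.46 FPKM and lost its call with unscaled FPKM, under upper-quartile scaling, without hippocampus replicate 4 and without hypothalamus replicate 1.

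Partners that bind these factors were taken next. Of 17 listed genes, 14 were found and compared, with 4 called higher in hippocampus, 2 higher in hypothalamus and 8 neither, against 14.5% and 13.4% of all symbols, and a median difference of 0.22. Hdac9, a class IIa deacetylase that represses MEF2 proteins, had the largest difference at 2.96 ± 0.21 (SE), with 12.8 ± 4.08 FPKM in hippocampus against 1.59 ± 0.15 FPKM. Cask, a scaffold kinase that can act with TBR1, read 6.02 ± 0.26 against 1.56 ± 0.59 FPKM. Lmo4, a LIM-only protein that competes for the cofactor of LHX2, read 187 ± 22.1 against 62.4 ± 11.6 FPKM, and Tcf4, an E protein partner of NEUROD2, read 118 ± 10.8 against 45.3 ± 3.60 FPKM. Of the other E proteins, Tcf3 was called for hypothalamus, at 8.27 ± 1.88 against 2.88 ± 0.64 FPKM, and Tcf12 overlapped. Ldb1, the LIM-domain cofactor itself, overlapped between tissues at 28.4 ± 5.94 and 35.4 ± 12.6 FPKM, and the sign of its difference of 0.03 turned under each of the 3 other scalings.

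Genes reported elsewhere as targets were counted without any claim that these factors act on them here. Of 5 listed targets of TBR1, 4 were found, and 3 were called higher in hippocampus, against 14.5% of all symbols, with a median difference of 1.27. These were Cask, Reln, which encodes the matrix protein reelin, and Grin2b, an NMDA receptor subunit. Reln averaged 19.0 ± 2.78 FPKM in hippocampus against 8.16 ± 1.34 FPKM. Grin2b, at 24.9 ± 5.30 against 14.5 ± 3.55 FPKM, had a difference of 1.06 ± 0.24 and lost its call under each of the 3 other scalings, without hippocampus replicate 4 and without hypothalamus replicate 2. Ntng1 overlapped between tissues, at 9.19 ± 0.52 and 11.8 ± 4.58 FPKM. Of 6 listed targets of MEF2, 5 were called higher in hippocampus, against the same 14.5%, with a median difference of 2.48. Among the largest differences were those of Homer1 (3.46 ± 0.26), Nr4a1 (2.97 ± 0.48) and Arc (2.31 ± 0.31), all genes of synaptic activity or signalling. The pan-neuronal list, with 6 of 6 genes found and none at 0 throughout, summed to between 1527 and 2435 FPKM in hippocampus and between 961 and 1147 FPKM in hypothalamus. Of its genes, 2 (Snap25 and Syt1) were called for hippocampus and 4 were not called, with Map2 and Eno2 overlapping between tissues, and the part of the list in these counts was not tested.

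The genes whose profiles over the 7 libraries were most like each factor were then sought among 8469 symbols that averaged 5 FPKM or more in their higher tissue. Likeness was the root mean square distance between log2(rescaled FPKM + 1) profiles, each centred on its own mean, and it is governed mainly by the size of the tissue difference. Lhx2 had a close neighbour in Fmnl1, at 0.11. Emx2 was nearest to Cbfa2t3 and Ptgs2, both at 0.14, and Bcl11b to Egr3 at 0.23 and Adcy9 at 0.25. Neurod2 was nearest to Cilp2 at 0.31 and Mir32 at 0.32, of which Mir32 was listed at 0 in each hypothalamus library. Tbr1 had the most distant neighbours, among them Chp at 0.45. These distances are descriptions over 7 libraries that share their tables.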

How the data were processed

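Poly-A RNA from the 7 libraries was sequenced on an Illumina HiSeq, per the labels' protocols. The authors deposited FPKM in 1 table per tissue, with a status word for each value, per the file headers. The submitters' processing notes name TopHat, TopHat2, Bowtie, Bowtie2, Cufflinks and Cuffdiff and the build rn5, without versions or roles, and the annotation, the scaling of libraries and the strand setting are not given in the sources used here. A locus was dropped if any of its libraries lacked the status OK (86 of 18087 in hippocampus, 24 of 17762 in hypothalamus), and the locus with the highest mean was taken per symbol. The 8 genes were matched by symbol, and list genes also by a RefSeq synonym that is no current symbol. Symbols that averaged 1 FPKM or more in either tissue were compared after rescaling, with a pseudocount of 1, in Python 3.11.15 with pandas 2.3.3. No test was made across the tables, tissue and table cannot be told apart, and counting error is unknown because FPKM carries no depth.

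The 8 genes and the lists were chosen with earlier results of these data known. The 6 related lists overlap in part, and 19 marker lists served to set levels of other cells beside the factors. Named genes were the measured factors, up to 4 genes per list with the largest difference, genes at 0, and the 2 nearest profiles of each factor. Genes named outside this rule were chosen after their values were seen, and a few genes that it names are not reported here. Alternatives were other pseudocounts, filters, fold thresholds and scalings, loci summed, and each library left out.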

Additional observations from a re-analysis of the deposited data

Results flagged for a closer look

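In hippocampus, 78 values (factors, related genes and sums of marker lists) were examined for a library that stood apart, by the gap to its nearest neighbour as a share of the whole range set against the 95% critical value for 4 libraries. Chance flags about 1 in 20, or 3.9 here, and 8 were found, none of them among the 5 measured factors, of which Neurod2 came closest at 0.817. Replicate 1 was high for Bcl11a (ratio 0.902), at 27.7 FPKM against 17.0 to 18.0, for Reln (0.907), at 23.2 FPKM against 17.3 to 17.9, and for Sox5, listed as Sox5l1 (0.848), at 2.74 FPKM against 1.79 to 1.93. The Cajal-Retzius list (0.942) was highest in the same library, and Reln makes up nearly all of its sum. Replicate 4 was high for Hdac4 (0.989), at 9.48 FPKM against 6.83 to 6.86, for Hdac9 (0.925), at 18.9 FPKM against 10.4 to 11.0, and for Homer1 (0.859), at 48.6 FPKM against 34.4 to 36.4. The ependyma and tanycyte list (0.947) was highest in replicate 3, where Vim read 127 FPKM against 26.6 to 37.3 FPKM in the others and the meninges list summed to 152 FPKM against 27.2 to 74.6 FPKM.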

How the results depend on the processing

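With the replicate number as a block, an alternative chosen after seeing the data that leaves out hippocampus replicate 4, the mean differences over 3 pairs were 2.53 ± 0.20 (SE) for Emx2, 3.24 ± 0.60 for Tbr1, 5.39 ± 0.40 for Neurod2, 2.67 ± 0.36 for Lhx2 and 4.55 ± 0.32 for Bcl11b. They equal the unpaired differences without that library, and the labels do not say whether equal numbers share an animal. All 5 measured factors were called higher in hippocampus under 17 of 18 alternatives and 4 under the remaining one, a minimum of 5 FPKM, which Emx2 does not reach. Their differences kept their sign under the alternatives, from 1.41 to 3.34 for Emx2, 2.52 to 3.82 for Tbr1, 3.71 to 6.14 for Neurod2, 2.27 to 2.80 for Lhx2 and 3.52 to 4.87 for Bcl11b. The low ends came from a pseudocount of 5, except that of Lhx2, which came from FPKM as deposited. Without a fold threshold, 1 hypothalamic factor was higher in hippocampus and 2 related telencephalic factors were higher in hypothalamus. At 4-fold, hippocampus kept calls for 5 related factors, 3 paralogues, 2 partners and 1 TBR1 target, and hypothalamus had 0 related factors and 0 partners. A pseudocount of 5 left 1 partner called for hypothalamus. With loci summed, an alternative for levels that was chosen after seeing the data, the hippocampal mean of Emx2 was 7.46 FPKM. In hypothalamus, 3 factors had an SD above the median, 5 with a pseudocount of 0.1 and between 3 and 5 with each replicate left out (5 without replicate 3). With FPKM as deposited, hippocampus took 33.8% of the calls over all symbols (928 against 1819), with a median difference of -0.21, in place of 52.0%, and under upper-quartile scaling 42.9%. Of 49 called genes among factors and lists, 37 kept the call under each of 16 alternatives that left the fold threshold in place.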
